A study of Homo sapiens with 2 samples.

Results

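The angiopoietins and TIE receptors were followed here as a family of 7 genes, ANGPT1, ANGPT2, ANGPT4, TEK, TIE1, PTPRB and SVEP1, chosen by symbol among the 36601 genes of the count matrices. The data came from single-cell RNA sequencing of 2 blood-generating heart-forming organoids (BG-HFOs), 32.7 and 33.10, each dissociated individually at d14 and loaded as its own 3′ library. Both were grown from the human embryonic stem cell line hES3 NKX2.5-eGFP, in which the cardiac gene NKX2.5 drives a green reporter. Aggregates were embedded in Matrigel, differentiated through biphasic WNT modulation with CHIR and then IWP2, and supplemented with BMP4, bFGF, VEGF and further factors that included SCF, EPO, IL-6, IL-11, IGF-1, FLT3, IL-3 and SHH but no angiopoietin. Both organoids received the same treatment, so every comparison is between cell classes within the organoids, and n = 2 organoids throughout.

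ANGPT1 is the agonist ligand of the receptor tyrosine kinase TEK (also called TIE2), and ANGPT2 is the ligand that blocks or only weakly activates TEK, depending on the setting. ANGPT4 is a further TEK agonist. TIE1 binds no angiopoietin on its own and acts as a co-receptor of TEK, PTPRB (VE-PTP) is the endothelial phosphatase that dephosphorylates TEK and VE-cadherin, and SVEP1 is a large extracellular matrix protein that binds TIE1 and acts in lymphatic development. In the embryonic heart, myocardial ANGPT1 signals to endocardial TEK during trabeculation, and TEK signalling also takes part in the formation of veins. ANGPT1 and TEK have further been described in blood progenitors and in megakaryocytes.

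The libraries held 16866 barcodes (32.7) and 19948 barcodes (33.10) with medians of 7842 and 8284.5 UMIs, and 100 barcode sequences occurred in both. The cell filter left 16792 and 19893 cells. Classes were gated on raw UMIs of lineage genes that include none of the 7 members, and cells positive for more than 1 lineage (18.8% and 21.1%) or for none (24.9% and 23.0%) entered no class. Cells gated as endothelial through CDH5, ROBO4, ECSCR and EMCN were divided into RUNX1-positive endothelium (37 and 51 cells), arterial endothelium (AE, 1422 and 1346 cells, positive for CXCR4, SOX17 or DLL4 without NR2F2), venous endothelium (VE, 307 and 328 cells, positive for NR2F2) and other endothelium (929 and 1074 cells). Outside the endothelium there were cardiomyocytes (CM), epicardial cells, LUM-high stroma, other stroma and endoderm. The blood classes were megakaryocytic (Mk), erythroid (Ery), macrophage (Mac) and granulocytic (Gran) cells, and cells gated as haematopoietic progenitors (HPC). The HPC gate took MYB, SPN, GFI1 and PTPRC in cells that failed the Mk, Ery, Mac and Gran gates. The arterial ligand EFNB2 and the venous gene NRP2, which were not used in the gates, followed the AE and VE labels. EFNB2 stood at 651 and 646 CPM (UMIs of the gene scaled to a common total for every class) in AE against 101 and 90.9 in VE. NRP2 stood at 1102 and 1104 CPM in VE against 291 and 258 in AE. Levels are given below as CPM of the UMIs summed over a class, first for 32.7 and then for 33.10, and are compared between classes for the same gene, since 3′ counts with intronic reads are not on a common scale across genes.

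**Figure D1:**
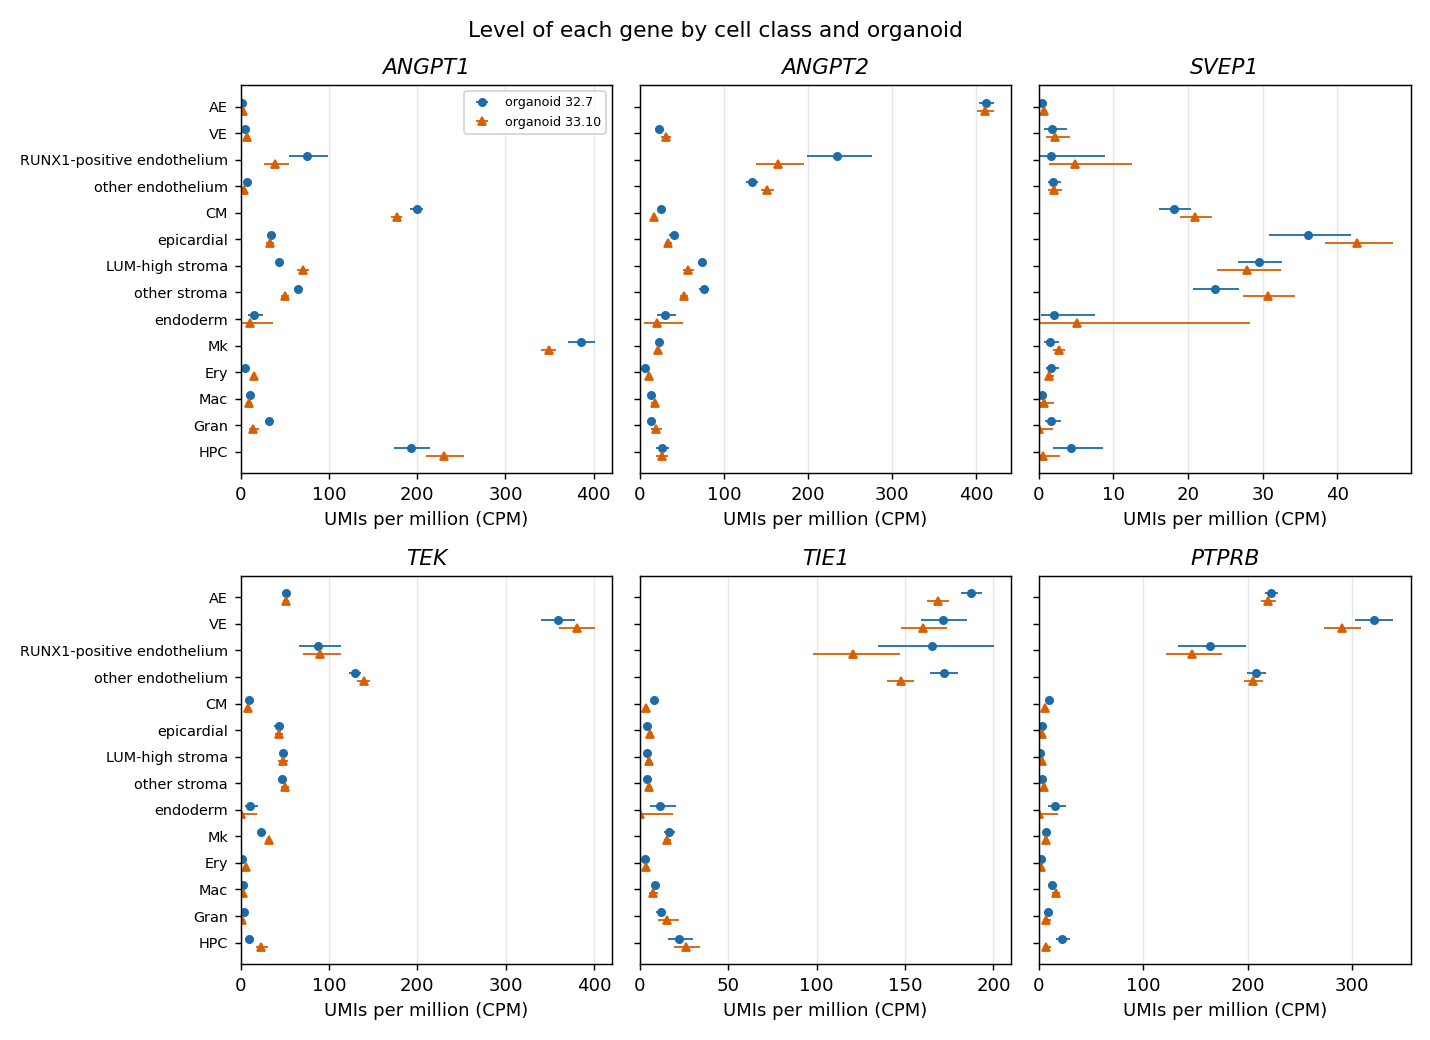
Levels of 6 family members (ANGPT4 is left out) by cell class, as CPM of summed UMIs on linear axes from 0 that differ between genes, with 1 point for each organoid and exact 95% Poisson intervals as bars. ANGPT2 peaked in AE at 412 and 411 CPM, TEK in VE at 359 and 380.4 CPM, ANGPT1 in Mk at 386 and 349 CPM and SVEP1 in epicardial cells at 36.0 and 42.7 CPM.

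The receptor TEK was highest in VE. TEK reached 359 and 380.4 CPM in VE, 129 and 139 in other endothelium, 87.4 and 90.3 in RUNX1-positive endothelium, and 51.6 and 50.9 in AE. AE against VE passed the test given below, while RUNX1-positive endothelium against AE did not (adjusted p = 0.21, edgeR). Outside the endothelium, TEK stood at 46.9 and 49.7 CPM in other stroma, 48.3 and 47.7 in LUM-high stroma, and 43.4 and 43.5 in epicardial cells, close beneath AE, and the ranges of other stroma and LUM-high stroma overlapped. Mk held 23.2 and 31.7 CPM, HPC 9.26 and 23.4, CM 8.99 and 8.21, and the Ery, Mac and Gran classes each stayed at or below 5.85 CPM in both organoids.

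TIE1, the co-receptor, showed another order. It stood at 187 and 168 CPM in AE, 172 and 160.2 in VE, 172 and 148 in other endothelium, and 165 and 121 in RUNX1-positive endothelium, and neighbouring classes in this order overlapped. Every class outside the endothelium held at most 25.9 CPM, led by HPC at 22.3 and 25.9 and Mk at 16.8 and 15.6, and the 3 stromal classes lay between 3.89 and 5.83 CPM. PTPRB, the phosphatase, was likewise endothelial, with 320.4 and 290.4 CPM in VE and 223 and 219.6 in AE. Other endothelium held 208 and 205 CPM, and RUNX1-positive endothelium 164 and 146. Neither AE against VE nor RUNX1-positive endothelium against AE passed for PTPRB (adjusted p = 0.27 and 0.073, edgeR). Apart from HPC at 22.3 and 7.12 CPM and Mac at 12.8 and 16.1, no class with at least 20 cells in each organoid exceeded 10.1 CPM for PTPRB.

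TIE1 lies on chromosome 1 (GRCh38, 43300982 to 43323108, plus strand), TEK on chromosome 9 (27109141 to 27230174, plus strand) and PTPRB on chromosome 12 (70515870 to 70637440, minus strand). Since TIE1 and TEK share the endothelium but differed in their order over its classes, the bases directly before each gene are shown, taken from RefSeq (GRCh38.p14), with the core motif of ETS transcription factors, GGAA or its reverse complement TTCC, in capitals. The TIE1 stretch is chr1:43300732-43300981 and the TEK stretch chr9:27108975-27109140, both 5′ to 3′ on the plus strand.
TIE1: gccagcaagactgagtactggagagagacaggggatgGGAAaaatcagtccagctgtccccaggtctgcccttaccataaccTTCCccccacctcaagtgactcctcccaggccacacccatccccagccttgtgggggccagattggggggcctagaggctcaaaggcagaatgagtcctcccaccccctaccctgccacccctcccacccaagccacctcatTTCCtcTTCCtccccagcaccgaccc
TEK: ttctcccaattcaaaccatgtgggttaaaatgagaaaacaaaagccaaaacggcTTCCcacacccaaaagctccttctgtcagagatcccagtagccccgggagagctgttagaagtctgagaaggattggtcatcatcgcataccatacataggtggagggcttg
The 250 bases before TIE1 held 4 cores that do not overlap, 1 GGAA and 3 TTCC. Of 35116 RefSeq promoter sequences, 34.3% held as many or more in their first 250 bases, with a median of 3. The 166 bases before TEK held 1 core, and 83.4% of the promoter sequences held as many or more in their first 166 bases, with a median of 2. These first bases need not end at the start of each gene. These letters are a description of the windows and were not set against the class levels.

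ANGPT2, the ligand released by endothelium, was highest in AE. AE held 412 and 411 CPM, RUNX1-positive endothelium 235 and 165, other endothelium 133 and 151, and VE 22.7 and 30.8. In RUNX1-positive endothelium 1 cell held 51 of the 148 UMIs in 32.7, and 1 cell 42 of the 135 in 33.10. Without that cell its level was 163 and 117 CPM, a range that overlaps other endothelium. This setting was chosen after its values were seen. The values of AE and VE were far apart in both organoids. Stroma also carried the transcript, with 73.6 and 57.9 CPM in LUM-high stroma, 76.2 and 52.8 in other stroma, and 40.3 and 33.7 in epicardial cells, all above VE. In the remaining classes the levels lay between 6.41 and 30.4 CPM, and VE, HPC, endoderm, Mk, CM, Gran and Mac formed a chain of overlapping ranges.

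ANGPT1, the TEK agonist, was highest outside the endothelium. Mk held 386 and 349 CPM, HPC 193 and 230.3, and CM 199 and 177. The ranges of HPC and CM overlapped, and Mk against HPC alone was not tested. Other stroma followed with 65.5 and 50 CPM, LUM-high stroma with 43.3 and 70.3, and epicardial cells with 34.6 and 33.1. In the endothelium ANGPT1 stood at 1.56 and 2.14 CPM in AE, 4.95 and 6.97 in VE, and 6.78 and 4.17 in other endothelium, but at 74.7 and 39.0 in RUNX1-positive endothelium.

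SVEP1, the matrix protein, was found in epicardial cells at 36.0 and 42.7 CPM, in LUM-high stroma at 29.5 and 27.9, in other stroma at 23.6 and 30.7, and in CM at 18.2 and 21.0. Every endothelial and blood class stayed at or below 4.88 CPM for SVEP1. ANGPT4 was scarce. Its highest level was 1.5 and 2.09 CPM in other stroma, from 15 and 21 UMIs, and LUM-high stroma held 17 and 11 UMIs. AE held 0 UMIs in 32.7, which allows a level of up to 0.146 CPM, and 2 UMIs in 33.10. Of the ligand and matrix genes, ANGPT1 (107249482 to 107498055) and ANGPT2 (6499632 to 6563409) lie on chromosome 8, ANGPT4 on chromosome 20 (869900 to 916334) and SVEP1 on chromosome 9 (110365248 to 110579880), all on the minus strand.

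**Figure D2:**
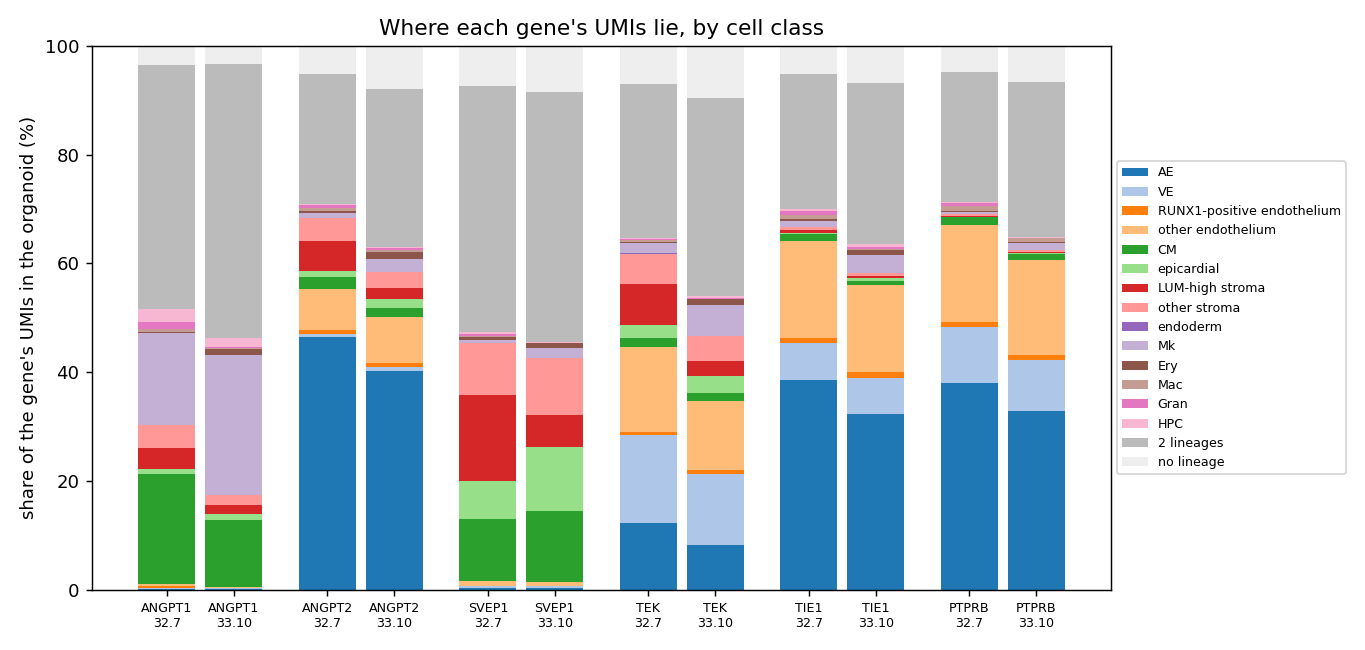
Share of each gene's UMIs held by each cell class in each organoid, as stacked bars in percent of all UMIs of that gene over the kept cells, for 6 genes. AE held 46.5% and 40.3% of the ANGPT2 UMIs, and cells positive for more than 1 lineage held 44.9% and 50.5% of the ANGPT1 UMIs.

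A level and a contribution to the organoid differ where classes differ in size. AE contributed 46.5% and 40.3% of all ANGPT2 UMIs while holding 10.8% and 7.46% of all UMIs, as well as 38.6% and 32.3% of the TIE1 UMIs and 38.1% and 32.8% of the PTPRB UMIs. VE, the class with the highest TEK level, contributed 16.1% and 13.2% of the TEK UMIs from 2.01% and 1.61% of all UMIs. AE added 12.3% and 8.16% from 10.8% and 7.46% of all UMIs, and other endothelium 15.6% and 12.7% from 5.42% and 4.25%. LUM-high stroma held 7.53% and 2.70% of the TEK UMIs from 7.01% and 2.64% of all UMIs. Other stroma held 5.47% and 4.64% from 5.24% and 4.35%, and epicardial cells 2.48% and 3.26% from 2.56% and 3.48%. The stromal shares of TEK thus lay near the stromal shares of all UMIs. For ANGPT1, CM contributed 20.1% and 12.4% and Mk 16.8% and 25.7%, in different order in the 2 organoids. Mk counted 890 cells in 32.7 and 2477 in 33.10, and CM 2001 and 1907. Cells positive for more than 1 lineage, which hold 33.6% and 39.4% of all UMIs, held 44.9% and 50.5% of the ANGPT1 UMIs, 28.3% and 36.5% of the TEK UMIs and 23.9% and 29.0% of the ANGPT2 UMIs, so a large part of each ligand cannot be assigned to a lineage here.

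The first comparison asked whether receptors, phosphatase and ligands differed between arterial and venous endothelium. ANGPT2 was higher and TEK lower in AE than in VE. ANGPT2 differed by 4.06 ± 0.27 on the log2 scale (AE minus VE, SE, adjusted p = 1.7e-09, quasi-likelihood test in edgeR, Benjamini-Hochberg adjusted for 19983 genes), and TEK by −2.74 ± 0.24 (adjusted p = 4.7e-08). SVEP1 was also lower in AE by −1.69 ± 0.59 (adjusted p = 0.047) from 0.488 and 0.637 CPM against 1.82 and 2.14, a call resting on 10 and 11 UMIs in AE. The stromal marker genes COL1A1, COL3A1, COL1A2 and PDGFRB moved the same way, at 55.0 and 51.2 CPM in AE and 301 and 249 in VE, and their part in the SVEP1 difference was not tested. With 1 member higher and 2 lower, the background was 21.1% of all genes called, 11.1% higher and 10% lower. ANGPT1 at −1.58 ± 0.56 missed the threshold (adjusted p = 0.0515). TIE1 differed by 0.21 ± 0.20 (95% interval −0.19 to 0.61, adjusted p = 0.53) and PTPRB by −0.36 ± 0.22 (95% interval −0.78 to 0.06, adjusted p = 0.27). Neither passed the test, nor did ANGPT4 on at most 2 UMIs a class (adjusted p = 0.4). The SVEP1 call was lost with cells thinned to 3000 UMIs before gating (adjusted p = 0.41) and without cells over 30000 UMIs (adjusted p = 0.057).

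**Figure D3:**
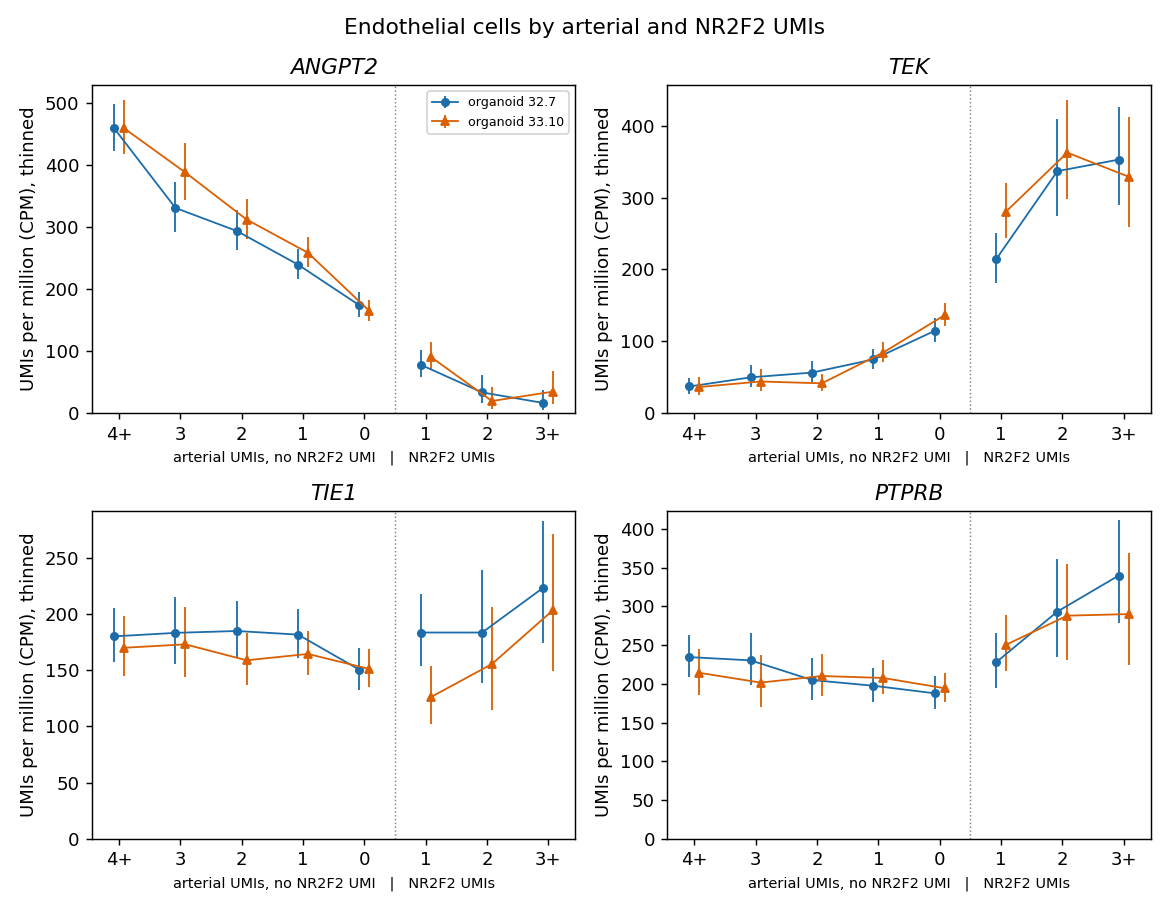
Levels of ANGPT2, TEK, TIE1 and PTPRB in endothelial cells thinned to 3000 UMIs each, as CPM from 0, with 1 line for each organoid and exact 95% Poisson intervals; left of the dotted line are cells without NR2F2 by their summed UMIs of CXCR4, SOX17 and DLL4, and right of it cells by their NR2F2 UMIs. In cells without NR2F2, ANGPT2 climbed from 174 and 165 CPM with 0 arterial UMIs to 459 and 459.6 CPM with 4 or more, while TEK went from 114 and 136 to 37.0 and 36.2 CPM.

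ANGPT2 and TEK also ran in opposite directions over strata of endothelial cells. Endothelial cells with at least 3000 UMIs (2598 of 2695 and 2681 of 2799) were thinned to that number and sorted by their gate genes, so that depth was equal. With 0, 1, 2 and 3 or more UMIs of the venous regulator NR2F2, TEK stood at 71.5, 214, 337 and 353 CPM in 32.7 and at 82.1, 280.2, 362 and 329 CPM in 33.10. ANGPT2 stood at 286, 77.8, 33.3 and 16.2 CPM in 32.7 and at 280.7, 90.8, 19.4 and 34.6 CPM in 33.10. TEK was higher and ANGPT2 lower at 1 NR2F2 UMI than at 0 in both organoids. The last steps differed in sign between the organoids, with ANGPT2 on 10 and then 5 UMIs in 32.7 and 6 and then 8 in 33.10. In thinned cells a count of 0 or 1 NR2F2 UMI depends on sampling too, and VE cells can lie in these strata. VE counted 307 and 328 cells, and the stratum with 2 UMIs 100 and 103. A graded course and 2 groups of cells mixed by sampling cannot be told apart here. PTPRB stood at 208, 228, 293 and 339.8 CPM in 32.7 and at 204, 250.3, 288 and 290 CPM in 33.10. TIE1 stood at 174, 183, 183 and 223 CPM and at 161, 126, 155 and 203 CPM, without a common order. The top stratum held 103 and 77 cells.

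Among cells without an NR2F2 UMI after thinning, which can include VE cells, the arterial genes CXCR4, SOX17 and DLL4 gave another scale. With 0, 1, 2, 3 and 4 or more arterial UMIs, ANGPT2 stood at 174, 239, 294, 331 and 459 CPM in 32.7 and at 165, 259, 312, 388 and 459.6 CPM in 33.10. TEK stood at 114, 74.6, 56.3, 49.7 and 37.0 CPM in 32.7 and at 136, 84.2, 41.4, 43.9 and 36.2 CPM in 33.10. ANGPT2 increased at every step in both organoids, and TEK decreased at every step in 32.7 and at all but 1 in 33.10. TIE1 stayed between 150.2 and 185 CPM in 32.7 and between 151 and 173 CPM in 33.10 on the same scale, and PTPRB between 188 and 234 and between 194 and 214 CPM. These are descriptions over cells of 2 organoids and carry no test.

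**Figure D4:**
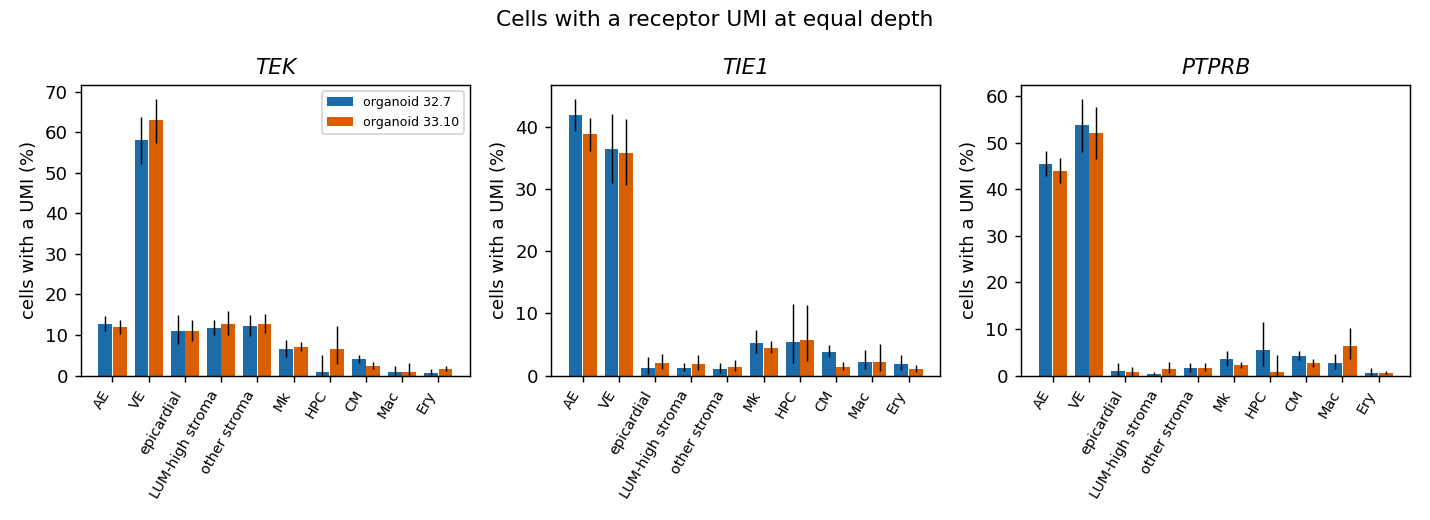
Share of cells with at least 1 UMI of TEK, TIE1 or PTPRB after thinning every cell to 3000 UMIs, in percent from 0, by class and organoid, with exact 95% binomial intervals. TEK was found in 58.0% and 63.0% of VE cells and 12.8% and 11.9% of AE cells, with the 3 stromal classes near AE, while TIE1 and PTPRB were found in at most 2.04% of the cells of each stromal class.

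The same contrast appeared in the share of cells. Thinning to 3000 UMIs left out shallower cells, 16 and 9 in AE, 2 and 4 in VE, and 24 and 59 in Ery. After thinning, TEK was detected in 58.0% and 63.0% of VE cells and 12.8% and 11.9% of AE cells, against 0.556% and 1.63% of Ery cells, a class that should lack it. Before thinning the shares were 84.4% and 85.7% in VE, 43.5% and 39.0% in AE, and 2.66% and 5.16% in Ery. ANGPT2 was detected in 40.5% and 38.4% of thinned AE cells, 4.26% and 5.56% of VE cells, and 2.22% and 3.26% of Ery cells (before thinning 61.7% and 59.4%, 19.5% and 20.4%, and 9.40% and 10.2%). TIE1 was detected in 41.9% and 38.8% of thinned AE cells and 36.4% and 35.8% of VE cells, against 1.85% and 1.02% of Ery cells (before thinning 86.1% and 77.8%, 76.2% and 72.3%, and 4.26% and 3.59%).

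Within AE, TEK was found in a smaller share of the cells with an ANGPT2 UMI than of those without, in both organoids. Before thinning, 878 of 1422 and 800 of 1346 AE cells held an ANGPT2 UMI. The thinned cells without one thus include cells that hold the transcript, which can narrow the difference. TEK was found in 11.1% of 570 AE cells with ANGPT2 and 14.0% of 836 without in 32.7, and in 9.73% of 514 and 13.2% of 823 in 33.10, with exact 95% intervals that overlapped in each organoid. Over all endothelial cells the shares were 11.7% and 26.0% in 32.7 and 14.6% and 27.5% in 33.10, with intervals that did not overlap. These cells pool AE, high in ANGPT2, with VE, high in TEK, so the difference between the classes enters these shares. Within VE the shares were 46.2% of 13 and 58.6% of 292 in 32.7, and 61.1% of 18 and 63.1% of 306 in 33.10, with overlapping intervals. Binomial and Poisson intervals cover counting error only.

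**Figure D5:**
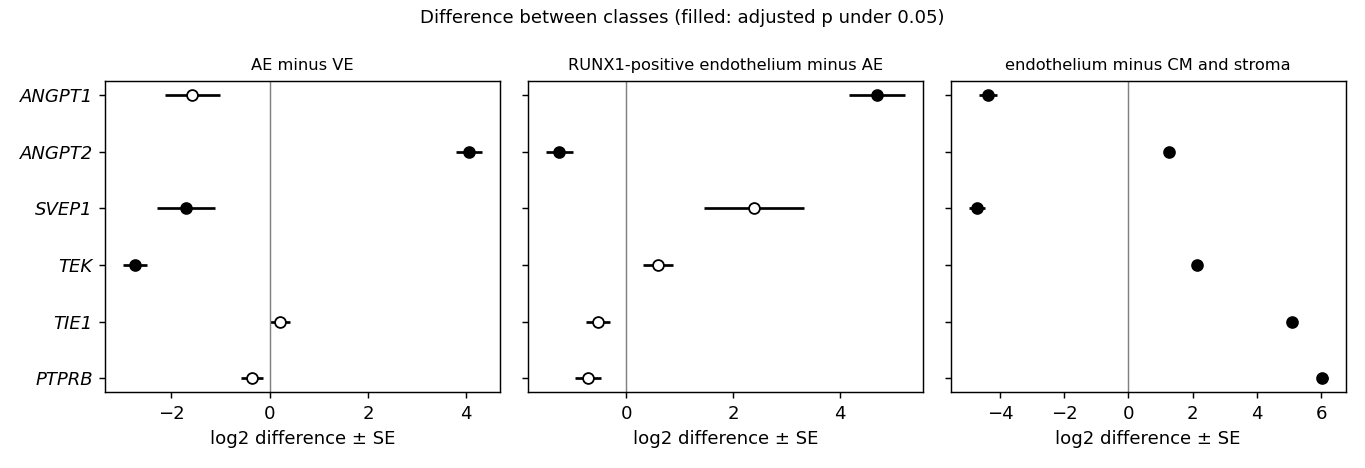
Log2 differences of 6 family members in AE minus VE, RUNX1-positive endothelium minus AE, and endothelium minus CM and stroma, with bars of 1 SE computed from the edgeR difference and its F statistic, filled where the adjusted p was under 0.05 (the axes differ between panels). ANGPT2 at 4.06 and TEK at −2.74 lie on opposite sides in AE against VE, and ANGPT1 is at 4.70 in RUNX1-positive endothelium against AE.

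The next comparison asked how endothelium that carries the haemogenic transcription factor RUNX1 but fails all blood gates differed from AE. The RUNX1-positive class required 2 or more RUNX1 UMIs and set no limit on arterial genes or NR2F2. AE required 3 or more arterial UMIs and no NR2F2, so the classes can also differ in arterial identity. The part of arterial identity in the differences was not tested. ANGPT1 was higher and ANGPT2 lower in the RUNX1-positive cells. ANGPT1 stood at 74.7 and 39.0 CPM against 1.56 and 2.14 in AE, a log2 difference of 4.70 ± 0.52 (adjusted p = 1.2e-05, edgeR), which was 4.00 without 32.7 and 5.34 without 33.10. ANGPT2 stood at 235 and 165 CPM against 412 and 411, a log2 difference of −1.25 ± 0.25 (adjusted p = 0.0035). These 2 calls compare with a background of 8.75% of genes, 3.49% higher and 5.26% lower. PTPRB at −0.72 ± 0.24 did not pass the test (adjusted p = 0.073), but did with the organoid as a block (adjusted p = 0.018). TIE1 differed by −0.53 ± 0.23 (adjusted p = 0.17), TEK by 0.59 ± 0.28 (adjusted p = 0.21) and SVEP1 by 2.39 ± 0.94 on 1 and 4 UMIs (adjusted p = 0.12), and none of them passed. TEK did pass without the count filter (0.68, adjusted p = 0.012). SVEP1 passed with DESeq2 (2.57, adjusted p = 0.011) and, in edgeR, with free RNA removed (7.30, adjusted p = 0.016). The free RNA setting leaves no SVEP1 UMI in AE of either organoid, so 7.30 is a difference from an empty class. ANGPT4, with 0 UMIs in the RUNX1-positive cells of both organoids, did not pass either (adjusted p = 0.87). With the gate minimums halved, the ANGPT2 difference was −0.58 (adjusted p = 0.24).

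The ANGPT1 UMIs of the RUNX1-positive endothelium came from few cells. They were 47 UMIs in 10 of 37 cells and 32 UMIs in 13 of 51 cells, with 14 and 7 in the cell that held most. Without that cell the level was 55.4 and 31.7 CPM, a setting chosen after its values were seen. For ANGPT2 the level without the cell that held most was 163 and 117 CPM, against 412 and 411 in AE. Transcripts of other lineages were also higher in this class than in AE. The summed Mk gate genes stood at 84.2 and 148 CPM against 23.0 and 46.6, the HPC gate genes at 19.1 and 15.9 against 1.66 and 1.51, the CM gate genes at 74.7 and 122 against 51.0 and 60.1, and the 4 stromal marker genes (COL1A1, COL3A1, COL1A2 and PDGFRB) at 313 and 424 against 55.0 and 51.2. Mk, HPC and CM are the classes with the highest ANGPT1, and the part of these transcripts in the ANGPT1 difference was not tested.

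The sources of ligand were compared with the endothelium next, with AE and VE averaged against CM and the 3 stromal classes averaged. The receptor genes were higher in endothelium, PTPRB by 6.05 ± 0.16, TIE1 by 5.09 ± 0.14 and TEK by 2.15 ± 0.14 on the log2 scale (adjusted p = 7.4e-17, 1.5e-16 and 3.1e-11, edgeR). ANGPT1 at −4.36 ± 0.28 and SVEP1 at −4.73 ± 0.25 were lower (adjusted p = 2.8e-11 and 1.6e-12). ANGPT2 was higher by 1.27 ± 0.15 (adjusted p = 5.3e-07), an average over AE, which lay above all stromal classes, and VE, which lay below them. ANGPT4 was called lower as well, on 0 to 2 UMIs a class in AE and VE. Of the 7 members 4 were higher and 3 lower, in a comparison in which most genes were called (59.2%, with 26.4% higher and 32.8% lower).

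Between the heart lineages outside the endothelium, the ligands divided. ANGPT1 was higher in CM than in stroma by 2.06 ± 0.22 (adjusted p = 2.9e-07), while ANGPT2 at −1.26 ± 0.21 (adjusted p = 5.8e-05), TEK at −2.35 ± 0.23 (adjusted p = 5.6e-08) and SVEP1 at −0.60 ± 0.21 (adjusted p = 0.028) were lower, against a background of 41.2% of genes called, 20.1% higher and 21.1% lower. PTPRB was called higher in CM by 1.51 ± 0.25 (adjusted p = 4.5e-05), on levels of 10.1 and 6.19 CPM, and by 0.83 without 32.7 and 2.11 without 33.10. The endothelial gate genes summed to 34.9 and 19.6 CPM in CM and to between 9.18 and 20.7 CPM in the 3 stromal classes, and their part in the PTPRB difference was not tested. ANGPT4 was called lower in CM (adjusted p = 0.013) on 4 and 9 UMIs, a call lost with DESeq2 (adjusted p = 0.051) and with the gate minimums halved (adjusted p = 0.11). TIE1 at 0.36 ± 0.23 did not pass (adjusted p = 0.21) and was −0.46 without 32.7 and 1.04 without 33.10. It passed in edgeR with the gate minimums doubled (0.55, adjusted p = 0.034) and in thinned cells (1.36, adjusted p = 0.0069). The ANGPT2 call was lost in thinned cells (−0.35, adjusted p = 0.26), and the SVEP1 call with the gate minimums halved (adjusted p = 0.098) and with free RNA removed (adjusted p = 0.089).

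TEK in stroma was not accompanied by the other endothelial receptor genes. In the same organoid the ratio of TEK to TIE1 UMIs was 11.9 and 9.39 in LUM-high stroma, 11.2 and 7.47 in epicardial cells, and 11.1 and 9.62 in other stroma, against 0.275 and 0.302 in AE and 2.09 and 2.37 in VE. After thinning, TEK was detected in 11.7% and 12.6% of LUM-high cells, 11% and 10.9% of epicardial cells, and 12.2% and 12.6% of other stromal cells, above the 0.556% and 1.63% of Ery cells (before thinning 32.8% and 34.4%, 32.5% and 33.9%, and 33.1% and 33.8%). TIE1 was detected in 0.992% to 2.04% of the thinned cells of these classes. Few thinned stromal cells held a TIE1 UMI, 7 and 11 of the other stromal cells and 14 and 9 of the LUM-high cells. TEK was found in 12.0% of 699 and 12.5% of 782 other stromal cells without one. Among such LUM-high cells the shares were 11.8% of 1136 and 12.9% of 497. These shares lie close to those of the whole classes by construction. Of the VE cells without a TIE1 UMI, 51.0% and 62.0% held TEK, so lacking one does not mark a cell as free of endothelial RNA. The ratio of ANGPT2 to CDH5 UMIs was 32.8 and 35.3 in LUM-high stroma and 26.2 and 20.4 in other stroma. It was 1.29 and 1.52 in AE and 3.25 and 6.39 in Ery. CDH5 is an endothelial gate gene, so the gates lower it in every class outside the endothelium and raise this ratio there.

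Within the stroma, epicardial cells held less ANGPT2 than LUM-high stroma, by −0.99 ± 0.25 (adjusted p = 0.023), the only member called where 4.78% of genes were called, 2.18% higher and 2.6% lower (956 genes, and 2374 with the organoid as a block). The call was lost with the gate minimums doubled (adjusted p = 0.11), in thinned cells (adjusted p = 0.07) and with free RNA removed (adjusted p = 0.11). ANGPT1 at −0.86 ± 0.32 (adjusted p = 0.14), TEK at −0.28 ± 0.24 (adjusted p = 0.57) and SVEP1 at 0.31 ± 0.25 (adjusted p = 0.55) did not pass, nor did TIE1, PTPRB and ANGPT4 on their low levels. Stromal cells with high counts of mural genes such as RGS5, NOTCH3 and CSPG4 (1113 and 1179 cells) were set against stromal cells low in them (728 and 379 cells). ANGPT1, which pericytes and smooth muscle are known to supply to vessels, stood at 57.1 and 53.5 CPM in the mural-gene-high cells and 31.3 and 32.7 in the low cells. The difference of 0.77 ± 0.13 did not pass (adjusted p = 0.11), in a fit in which 0.0111% of genes, 2 in all, were called. It passed in edgeR with no count filter (0.81, adjusted p = 0.036) and with DESeq2 (0.77, adjusted p = 0.037). With the organoid as a block, 2152 genes were called, among them ANGPT1 (0.78, adjusted p = 0.00053, but −0.19 in thinned cells without the block) and ANGPT2 (0.55, adjusted p = 0.0083), the latter from 79.2 and 50.1 against 46.6 and 40.9 CPM. TEK at 0.07 ± 0.19 (adjusted p = 0.92), SVEP1 at −0.23 ± 0.16 (adjusted p = 0.58), PTPRB at 0.33 ± 0.39 (adjusted p = 0.77), TIE1 at 0.05 ± 0.35 (adjusted p = 0.97) and ANGPT4 at −0.14 ± 0.43 (adjusted p = 0.93) passed neither with nor without the block. The mural-gene-high cells were deeper, with medians of 13916 and 13286 UMIs against 7362.5 and 6775, and the part of depth was not tested beyond the thinned value.

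In the blood classes the question was which lineage carried ligand and receptor transcripts. Mk held more of 5 members than Ery. ANGPT1 was higher by 4.89 ± 0.35 (adjusted p = 8e-10, and 5.94 without 33.10) from 386 and 349 CPM against 5.22 and 14.6. TEK was higher by 2.45 ± 0.28 (adjusted p = 4.6e-07, and 3.28 without 33.10) from 23.2 and 31.7 against 1.97 and 5.85, TIE1 by 2.02 ± 0.27 (adjusted p = 3.6e-06) from 16.8 and 15.6 against 2.96 and 3.58, PTPRB by 1.62 ± 0.34 (adjusted p = 0.00058) and ANGPT2 by 0.99 ± 0.26 (adjusted p = 0.0042). ANGPT4 was also called, on 1 and 8 UMIs in Mk against 0 in Ery, and SVEP1 at 0.30 ± 0.39 did not pass (adjusted p = 0.56, and −0.45 without 33.10). The ANGPT4 call was lost with the gate minimums halved (adjusted p = 0.29). The background was 47.3% of genes called, 26.7% higher and 20.6% lower. The endothelial gate genes summed to 82.2 and 83.3 CPM in Mk and 27.0 and 31.7 in Ery. The ratio of TIE1 to CDH5 UMIs was 3.26 and 3.67 in Mk against 0.587 and 0.621 in AE and 0.450 and 0.466 in VE, and that of PTPRB to CDH5 was 1.29 and 1.66 against 0.698 and 0.810 in AE and 0.841 and 0.844 in VE. CDH5 is an endothelial gate gene, and cells that also reached 4 UMIs of these genes were left out of Mk, which lowers CDH5 there. In Ery, gated the same way, the TIE1 ratio was 1.5 and 1.97 and the PTPRB ratio 0.95 and 1.03. Endothelial RNA and transcripts of Mk cells cannot be told apart by these ratios. The part of endothelial RNA in the smaller Mk differences was not tested. After thinning, ANGPT1 was detected in 40.5% and 43.5% of Mk cells and in 1.11% and 3.06% of Ery cells (39.7% and 50.6%, and 4.79% and 6.34%, before). Thinning kept 575 of 890 and 1869 of 2477 Mk cells, so the shares before and after are over different cells.

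The HPC class shared the ANGPT1 signal. HPC exceeded the mean of the other blood classes in ANGPT1 by 2.54 ± 0.24 (adjusted p = 1.5e-06), TIE1 by 1.25 ± 0.25 (adjusted p = 0.0029) and TEK by 1.28 ± 0.33 (adjusted p = 0.016), where 8.99% of genes were called, 5.81% higher and 3.18% lower. PTPRB at 1.00 ± 0.32 (adjusted p = 0.058, and 1.63 without 33.10), ANGPT2 at 0.60 ± 0.27 (adjusted p = 0.2) SVEP1 at 0.77 ± 0.62 (adjusted p = 0.53) and ANGPT4 (adjusted p = 0.65) did not pass. The PTPRB difference was close to 0 without 32.7 (0.0014). It passed with DESeq2 (1.02, adjusted p = 0.0081) and, in edgeR, with no count filter (0.93, adjusted p = 0.0014) and with free RNA removed (2.89, adjusted p = 0.022). The free RNA setting leaves no PTPRB UMI in Ery. Mk, with the highest ANGPT1 level of all classes, is 1 of the 4 averaged. The HPC gate genes summed to 680 and 536 CPM in HPC, 611 and 647 in Mac, and 631 and 530 in Gran. They summed to 115 and 90.4 CPM in Mk and 102 and 107 in Ery. The Mk gate genes summed to 81.1 and 203 CPM in HPC, against 35.8 and 72.9 in Ery. In Mac they summed to 22.8 and 40.6 CPM, and in Gran to 65.4 and 71.9. The part of Mk transcripts in the ANGPT1 difference was not tested. The TEK difference was 2.02 without 32.7 and 0.68 without 33.10, and its call was lost with the gate minimums doubled (adjusted p = 0.21) and in thinned cells (adjusted p = 0.67). The TIE1 call was lost without cells over 30000 UMIs (adjusted p = 0.059), and in thinned cells the difference was −1.44 (adjusted p = 0.38). Against the mean of AE and VE, HPC were higher in ANGPT1 by 6.11 ± 0.32 and lower in PTPRB by −4.04 ± 0.28, TEK by −2.95 ± 0.28, TIE1 by −2.71 ± 0.24 and ANGPT2 by −1.89 ± 0.27 (adjusted p = 5.8e-12, 3.6e-10, 3.9e-08, 1.1e-08 and 8.8e-06), with 44.9% of genes called, 22.3% higher and 22.6% lower. SVEP1 at 1.28 ± 0.66 did not pass (adjusted p = 0.12), was −1.07 without 32.7 and 2.30 without 33.10, and passed with free RNA removed (3.78, adjusted p = 0.0085). That setting leaves no SVEP1 UMI in AE. ANGPT4 did not pass (adjusted p = 0.64). Without 33.10 the TEK difference was −3.75, and without 32.7 the PTPRB difference was −5.03.

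Cycling endothelial cells (96 and 129, with 4 or more UMIs of TOP2A, MKI67 and CENPF) were compared with non-cycling ones (2499 and 2575). ANGPT1 was higher in the cycling cells by 2.19 ± 0.30 (adjusted p = 0.00063), at 19.9 and 11.9 CPM against 3.21 and 3.67. ANGPT2 was lower by −0.74 ± 0.15 (adjusted p = 0.0076), at 209 and 146 CPM against 293 and 298, and TIE1 by −0.42 ± 0.12 (adjusted p = 0.044), at 139 and 123 against 184 and 164. The background was 14.9% of genes called, 8.98% higher and 5.94% lower (2593 genes, and 4672 with the organoid as a block). With the block, TEK at 0.25 (adjusted p = 0.022 against 0.15 without), PTPRB at −0.21 (0.03 against 0.33) and SVEP1 at 1.59 (0.035 against 0.061) also passed. The TIE1 call was lost with the gate minimums halved (adjusted p = 0.14) or doubled (adjusted p = 0.17), and that of ANGPT1 without cells over 30000 UMIs (1.10, adjusted p = 0.072). RUNX1-positive cells, 3 and 7 of the cycling cells, held 22 of 42 and 10 of 27 of the ANGPT1 UMIs there. Without them, a setting chosen after seeing the data, the levels were 9.84 and 8.06 CPM against 2.66 and 2.98. The stromal marker genes stood at 258 and 277 CPM in the cycling and 108 and 118 in the non-cycling cells, and their part in the ANGPT1 difference was not tested. The endothelial gate genes summed to 783 and 762 CPM in the cycling cells against 1209 and 1133. The cycling cells were deeper, with medians of 21356 and 16524 UMIs against 11173 and 9114. Both groups pool AE, VE, RUNX1-positive and other endothelium. The part of depth, beyond leaving out cells over 30000 UMIs, and of the mix of these classes was not tested.

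The partners of the pathway were read from a list of 26 genes, of which 25 were tested. From VE to AE, 9 were higher and 2 lower, beside 11.1% and 10% of all genes, with a median log2 difference of 0.26 against 0.03 over all genes. The higher genes were the kinase subunits PIK3R1 (1.18) and PIK3CA (0.41), the adaptors GRB2 (0.57) and TNIP2 (0.61), the transcription factors ETS1 (0.94) and ETS2 (0.90), the membrane protease MMP14 (0.97), the integrin subunit ITGB1 (0.45) and the hyaluronan receptor LYVE1 (1.04). The lower genes were the integrin subunit ITGB3 (−1.37) and the adaptor SHC1 (−0.46). The lymphatic genes PROX1 (−0.09 ± 0.24, adjusted p = 0.85) and FLT4 (0.07 ± 0.21, adjusted p = 0.87), and the TEK pathway targets NOS3 (0.01 ± 0.19, adjusted p = 0.98) and FOXO1 (0.02 ± 0.16, adjusted p = 0.96), did not pass.

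In RUNX1-positive endothelium against AE, 10 of the 25 genes were lower, beside 5.26% of all genes, with a median of −0.53 against −0.17 over all genes. They were the integrin subunits ITGB1 (−0.74) and ITGA5 (−0.93), MMP14 (−1.14), the phosphatase PTPN11 (−0.67), ELF2 (−0.36), ETS1 (−0.77), ETS2 (−0.86), FOXO1 (−0.55), the nitric oxide synthase NOS3 (−0.88) and the lymphatic receptor FLT4 (−0.92). Of these, ITGB1, MMP14, ETS1 and ETS2 were also higher in AE than in VE, and the part of arterial identity was not tested. For comparison, 21 of the 25 were higher and 1 lower in endothelium than in CM and stroma (median 0.63 against −0.09), where 26.4% and 32.8% of all genes were, and 16 were higher and 3 lower in Mk than in Ery (median 1.02 against 0.19), where 26.7% and 20.6% were.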

How the data were processed

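Each of 2 BG-HFOs was dissociated individually and sequenced as 1 library with the 10x Chromium Next GEM 3′ v3.1 kit. The authors made the deposited UMI counts with Cell Ranger 7.0.0 against GRCh38, intronic reads included, sense strand only, before their depth equalisation, free-RNA correction and cell filter. Their limits (50 to 11000 genes, under 30% mitochondrial counts) were applied here. The totals of 191152562 and 233818881 UMIs limit the precision of scarce genes such as ANGPT4. The strand matters for ANGPT2 and PTPRB, which overlap other genes on the opposite strand.

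Cells were gated on raw UMIs of lineage genes (minimum 4 for endothelial and HPC genes, 5 for stromal, Ery and Mac genes, 10 for the others). Cells positive for 2 lineages were left out, which stands in for a doublet caller. This can also leave out single cells that carry genes of 2 lineages. The paper describes endocardial-like cells with cardiac and endothelial genes, and potential early primitive progenitors with arterial and haematopoietic genes. Such cells may thus enter no class here. A fit on UMI sums per organoid covered the 13 classes that reached 20 cells in both (endoderm, with 103 and 12 cells, did not). The cycling and mural-gene comparisons had fits of their own. Sums were tested with edgeR 4.0.16 (R 4.3.3, TMM, filterByExpr, quasi-likelihood, Benjamini-Hochberg threshold 0.05). Cells are not replicates, and with n = 2 the p-values measure the spread between 2 organoids of 1 line, for which separate differentiations are not given. In simulated data for AE against VE, 65 of 100 genes changed by 1 on the log2 scale and 100 of 100 changed by 2 were recovered, and for RUNX1-positive endothelium 27 and 95. The simulated counts were independent, with 1 fixed dispersion and no organoid effect. No gene as scarce as ANGPT4 or SVEP1 in these classes was changed, so the values do not give the recovery in the data. Python 3.11.15, pandas 2.3.3 and scipy 1.17.1 were also used.

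Members, gates, lists and tests were chosen with earlier results of these data known. All 7 members are named in the comparisons they were tested in (ANGPT4 could not be tested in cycling endothelium), list genes where they passed in the AE and VE or RUNX1-positive comparisons, and for each member with at least 10 CPM in a class the 3 genes whose log2(CPM + 1) correlated best over the classes. Classes of an organoid share their source, so the organoid number pairs them (residual correlations over 78 class pairs ran from 0.00299 to 0.752, median 0.319, with 71 over 0.1), and a blocked value is given where it changes a call or a count. Alternatives were another normalization (DESeq2-type size factors), no count filter, DESeq2 1.42.0, the block, each organoid left out, gate minimums halved or doubled, cells thinned to 3000 UMIs, cells over 30000 UMIs left out, a stricter cell filter (at least 1000 genes, under 15% mitochondrial counts) and 5% free RNA removed.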

Additional observations from a re-analysis of the deposited data

How the results depend on the processing

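Of 69 member results tested, 36 passed the threshold, and of 350 alternative fits of these, 331 kept direction and call, 18 kept the direction only and 1 turned (TIE1 in HPC against other blood, −1.44 in thinned cells). All alternatives kept 25 of the 36. Leaving out either organoid turned none of the 72 values of results that passed, and 10 of 66 of the others: ANGPT4 (−2.04 and −2.92) in HPC against endothelium and against other blood, TIE1 (−0.23) in epicardial cells and SVEP1 (−0.45) in Mk against Ery without 33.10, and TIE1 (−0.46) in CM against stroma, PTPRB (−0.23) in epicardial cells, SVEP1 (−1.07) in HPC against endothelium, and ANGPT4 (0.29), TEK (−0.28) and TIE1 (−0.18) in mural-gene-high stroma without 32.7. These have no test because no residual degrees of freedom are left. Of the 33 results that did not pass, 31 of 306 fits passed, ANGPT1 in AE against VE among them with DESeq2, no filter and 5 other settings. With no filter, PTPRB in RUNX1-positive endothelium, ANGPT1 in epicardial cells and ANGPT2 in HPC against other blood passed too. SVEP1 passed with DESeq2 in HPC against endothelium, and in cycling endothelium with halved gates, doubled gates and free RNA removed. The organoid block called 2374 genes between epicardial cells and LUM-high stroma, 4672 between cycling and non-cycling endothelium and 2152 between mural-gene-high and low stroma, against 956, 2593 and 2, and changed no member call but those given with their results. Thinning left fewer UMIs, with 1225 genes called for AE against VE, 5289 for endothelium against CM and stroma, 3941 for CM against stroma, 3517 for HPC against endothelium, 5217 for Mk against Ery and 1 for mural genes. For RUNX1-positive endothelium against AE, DESeq2-type size factors called 1085 and halved gates 230. For epicardial cells no filter called 1738 and doubled gates 1888, and for HPC against other blood doubled gates called 2758. For mural genes no filter called 315, DESeq2 344, doubled gates 178 and free RNA removal 1. Values that turned in thinned cells without passing were TIE1 (−0.056) in AE against VE, TIE1 (−0.94) and SVEP1 (−0.077) in epicardial cells, SVEP1 (−2.15) in HPC against endothelium, ANGPT2 (−0.88) and SVEP1 (−4.77) in HPC against other blood, and ANGPT1 (−0.19) and SVEP1 (0.12) in mural-gene-high stroma. TIE1 in epicardial cells turned to −0.11 without deep cells. In mural-gene-high stroma TEK turned to −0.10 and TIE1 to −0.034 with doubled gates, and TIE1 to −0.24 with halved gates. ANGPT4 in RUNX1-positive endothelium turned to 2.19 with DESeq2. The causes were not tested. Thinned cells, and doubled gates for RUNX1-positive endothelium, left too few cells for a value in the RUNX1-positive and cycling comparisons. Of 276 alternative levels, 181 lay within 1 SD of the organoids.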

Other observations

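The angiopoietin-like genes, relatives of the angiopoietins that do not bind the TIE receptors, held 4 tested genes of 8. ANGPTL4, an inhibitor of lipoprotein lipase, stood at 70.6 and 75.0 CPM in VE, 2.20 and 1.68 in AE, and 33.4 and 11 in RUNX1-positive endothelium. It was lower in AE than in VE by −5.10 ± 0.34 (adjusted p = 1.8e-09, edgeR) and higher in RUNX1-positive endothelium than in AE by 3.22 ± 0.52 (adjusted p = 0.00066). Stroma carried it at 35.2 and 42.0 CPM (LUM-high) and 37.0 and 38.6 CPM (other). ANGPTL2, a secreted relative, was higher in AE than in VE by 1.40 (adjusted p = 0.0034), at 55.9 and 40.7 against 20.1 and 19.6 CPM.

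The genes with the pattern most like each member over 26 class sums, which share libraries and depth, were taken from 13063 genes as a description. They were SHC4 (r = 0.937), RASGRF2 (0.933) and AC124290.1 (0.932) for ANGPT2, PRRT2 (0.946), FAT4 (0.939) and SHC1 (0.939) for TEK, CD34 (0.974), PPM1F (0.974) and SNRK (0.969) for TIE1, PPP1R16B (0.986), PPM1F (0.983) and ADCY4 (0.981) for PTPRB, AC110296.1 (0.971), CCDC183 (0.966) and MIR100HG (0.963) for SVEP1, and ATG10 (0.856), OXLD1 (0.847) and R3HDM2 (0.847) for ANGPT1. TIE1 and PTPRB correlated with each other at 0.964.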
